A study of Mus musculus with 22 samples.

Results

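The genes described here bear the symbols of families that carry amino acids and neurotransmitters, in the striatum and in white adipose tissue (WAT) of mice. They were chosen by symbol, as every row of the count tables whose name begins with Slc1a, Slc3a, Slc6a, Slc7a, Slc36a, Slc38a or Slc43a and goes on with a number, with Slc7a5, Slc7a8 and Slc6a8 left out and a mean normalised count above 10 required within the tissue. Of 64 symbols so spelled, 42 passed in striatum and 35 in WAT, among 15827 and 17928 genes tested. A total of 30 genes passed in both tissues, 12 in striatum only, 5 in WAT only and 17 in neither. One of the 47 that passed, Slc7a6os, names the gene beside Slc7a6 and no transporter. It stays in all counts and medians of members below.

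The study set samples taken after thyroid hormone (TH) against samples of hypothyroid mice, and asked which genes respond in each tissue. All animals were labelled as male wild-type C57BL/6J mice of 8 weeks. Control animals were labelled hypothyroid through 2 weeks of propylthiouracil (PTU), a drug that blocks TH synthesis, and the TH animals are labelled by hormone and hours only, with PTU unmentioned. The striatum groups were PTU (2 libraries, replicates 3 and 6), TH for 12 h (4) and TH for 24 h (4), and the WAT groups were PTU, TH for 6 h and TH for 24 h (4 each). In the study's list of datasets, PTU stands beside the WAT data and no such procedure stands beside the striatum data. TH was a single injection of its T3 and T4 forms. Both tissues are mixtures of cells, so fewer cells of a type and less RNA per cell cannot be told apart in what follows.

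Amino acids cross membranes through carriers that differ in substrate and driving force. Sodium-driven pumps of the SLC1 and SLC6 families clear glutamate, GABA and glycine from synapses, and in the brain the glutamate carriers sit mostly on astrocytes. The SLC7 light chains exchange one amino acid for another and most of them reach the cell surface bound to the heavy chain Slc3a2. SLC38 carriers move glutamine and alanine, SLC36 carriers couple small amino acids to protons, and Slc43a1 and Slc43a2 of the SLC43 family pass large neutral amino acids. In fat cells such carriers feed the use of glutamine, serine and branched-chain amino acids.

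The libraries held 8.04 to 10.1 M counts in striatum and 17.3 to 26.9 M in WAT. Some striatum libraries went against their labels or stood apart. Xist had at least 22070.1 normalised counts in 6 of the 10 (PTU replicate 6, 12 h replicate 1 and all 4 at 24 h), and the sum of 4 Y-linked genes was at most 6.84 there and at least 856 in the other 4. The library of 24 h replicate 2 had 28389.5 normalised counts summed over 12 markers of cortical excitatory neurons, all detected in each group, against 6339 to 18219 in the other libraries, and 3232 over 12 markers of striatal projection neurons against 22468 to 59336. The cortical sum was 6339 to 9752 without TH and 12301 to 18219 at 12 h, so it moved with that comparison too. The striatal projection neuron sum was 39729 to 57373 without TH and lower at 12 h, at 22468 to 36689. The part of that fall in the member values was not tested. In WAT all 8 adipocyte markers were detected, while the sum of 10 skeletal muscle markers ran from 957 to 513920 between libraries. Against each member's row, the closest other row of its table differed by at least 7.27% in some library, so no member was a copy of another row.

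In WAT, 4 of 35 members changed at 6 h and 9 at 24 h, and in striatum 2 of 42 changed at 12 h and 1 at 24 h. At 6 h in WAT the transcripts of Slc1a5, Slc1a1 and Slc6a6 rose and that of Slc7a2 fell, against 4.18% of all genes that rose and 3.05% that fell (7.23% in both directions). At 24 h Slc1a5, Slc1a1, Slc7a6, Slc7a7, Slc36a2 and Slc43a2 rose, against 7.45% of all genes, and Slc7a10, Slc38a6 and Slc7a2 fell, against 9.62% (17.1% in both). Between 6 h and 24 h Slc7a6 rose further, against 3.07% of all genes, and Slc7a10, Slc6a6, Slc38a6, Slc1a5 and Slc38a7 fell, against 4.35% (7.41% in both). In striatum Slc38a3 and Slc7a10 rose at 12 h, where 0.96% of all genes were called (0.733% higher, 0.227% lower), and Slc7a10 rose at 24 h, where 0.348% were (0.316% higher, 0.0316% lower). Between 12 h and 24 h in striatum edgeR called none of the 42 members and 0% of all genes. At an unadjusted p under 0.05 there were 10 members and 2309 of the 15827 genes tested. DESeq2 called 2 members and 1.52% of all genes. Single libraries set some of these counts. At 12 h in striatum 0 members were called without either PTU library or without 12 h replicate 2 or 3, 1 without 12 h replicate 1 or 4 or 24 h replicate 1, 3 or 4, and 7 without 24 h replicate 2, where 7.93% of all genes were called. At 24 h in WAT 5 members were called without 24 h replicate 3, where 12% of all genes were.

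The members moved in both directions. Their median log2 change was 0.10 at 6 h and -0.03 at 24 h in WAT, beside medians of -0.03 and -0.002 over all genes tested, and 0.09 at 12 h and 0.05 at 24 h in striatum, beside 0.01 and 0.02. From the earlier to the later time it was -0.13 in WAT and -0.09 in striatum, beside 0.01 over all genes in both. A positive change was seen in 13 of 35 members in WAT and 10 of 42 in striatum, where edgeR called none. The share of all genes with a positive change was not counted. In the plot of changes by role, the largest called rises in WAT were those of Slc1a1 and Slc1a5, both of the SLC1 family. The largest called falls there were those of Slc7a10 and Slc7a2, both of the SLC7 family.

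**Figure D1:**
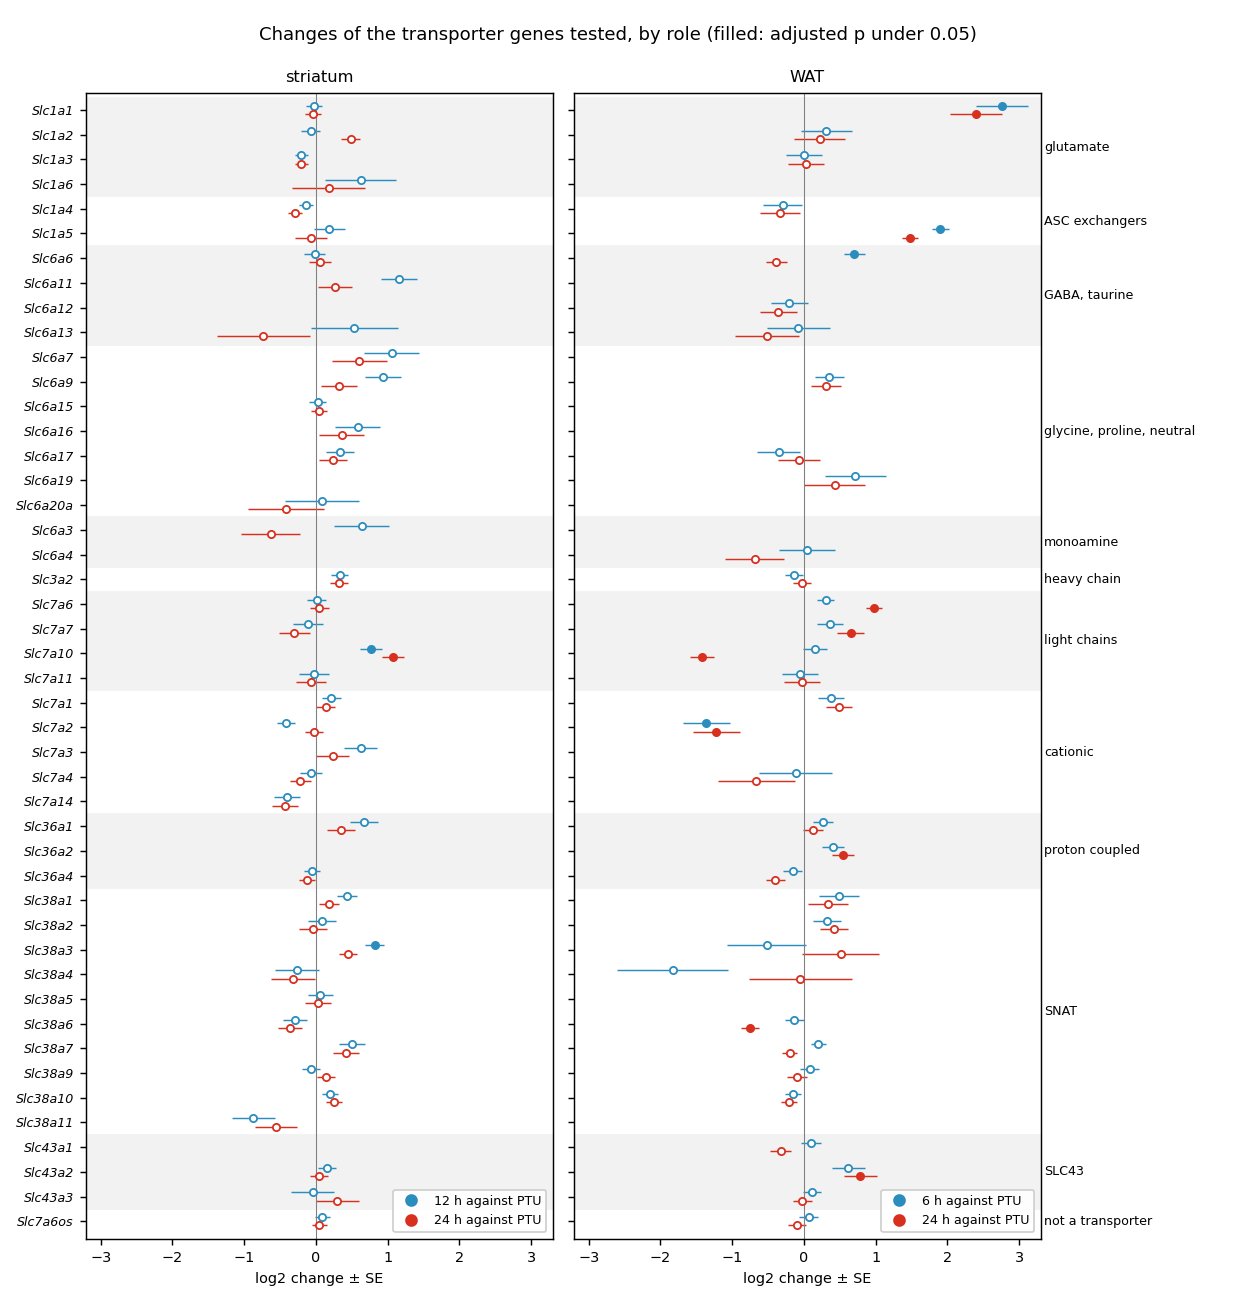
Log2 change against PTU with its standard error (horizontal axis) for the genes reported (rows, grouped by role), in striatum at 12 h and 24 h (left) and in WAT at 6 h and 24 h (right), filled where the adjusted p was under 0.05. Slc1a1 and Slc1a5 stand far to the right in WAT at both times, and Slc7a10 lies to the right in striatum and to the left in WAT at 24 h.

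The transcripts with the highest levels differed between the 2 tissues in the PTU groups. Levels are given here as normalised counts per kb of exon in the PTU groups, and since the tables were scaled apart, order within a tissue is the safer reading. Exon lengths are from GENCODE M21, which may differ from the annotation used for counting. In striatum the glial glutamate carriers stood first, with Slc1a2 (GLT-1, which clears most synaptic glutamate) at 2993 ± 309 (SD, n = 2) and Slc1a3 (GLAST) at 829 ± 33.7. In WAT Slc1a5 (ASCT2, an exchanger of glutamine and other small neutral amino acids) led with 2151 ± 229 (SD, n = 4), ahead of Slc7a10 (Asc-1, an exchanger of serine, glycine, alanine and cysteine) at 1141 ± 243 and the proton-coupled Slc36a2 at 1104 ± 162. The last 2 of these lay within each other's spread. Slc1a5 was 36th of 42 in striatum, at 7.7 ± 0.832, and Slc1a2 was 34th of 35 in WAT, at 1.58 ± 0.511. The heavy chain Slc3a2 was high in both tissues, at 222 ± 5.82 in striatum and 532 ± 69.1 in WAT. As the plot of levels shows, spread was wide for Slc6a13 and Slc38a4 in WAT and for Slc6a13 and Slc6a20a in striatum.

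**Figure D2:**
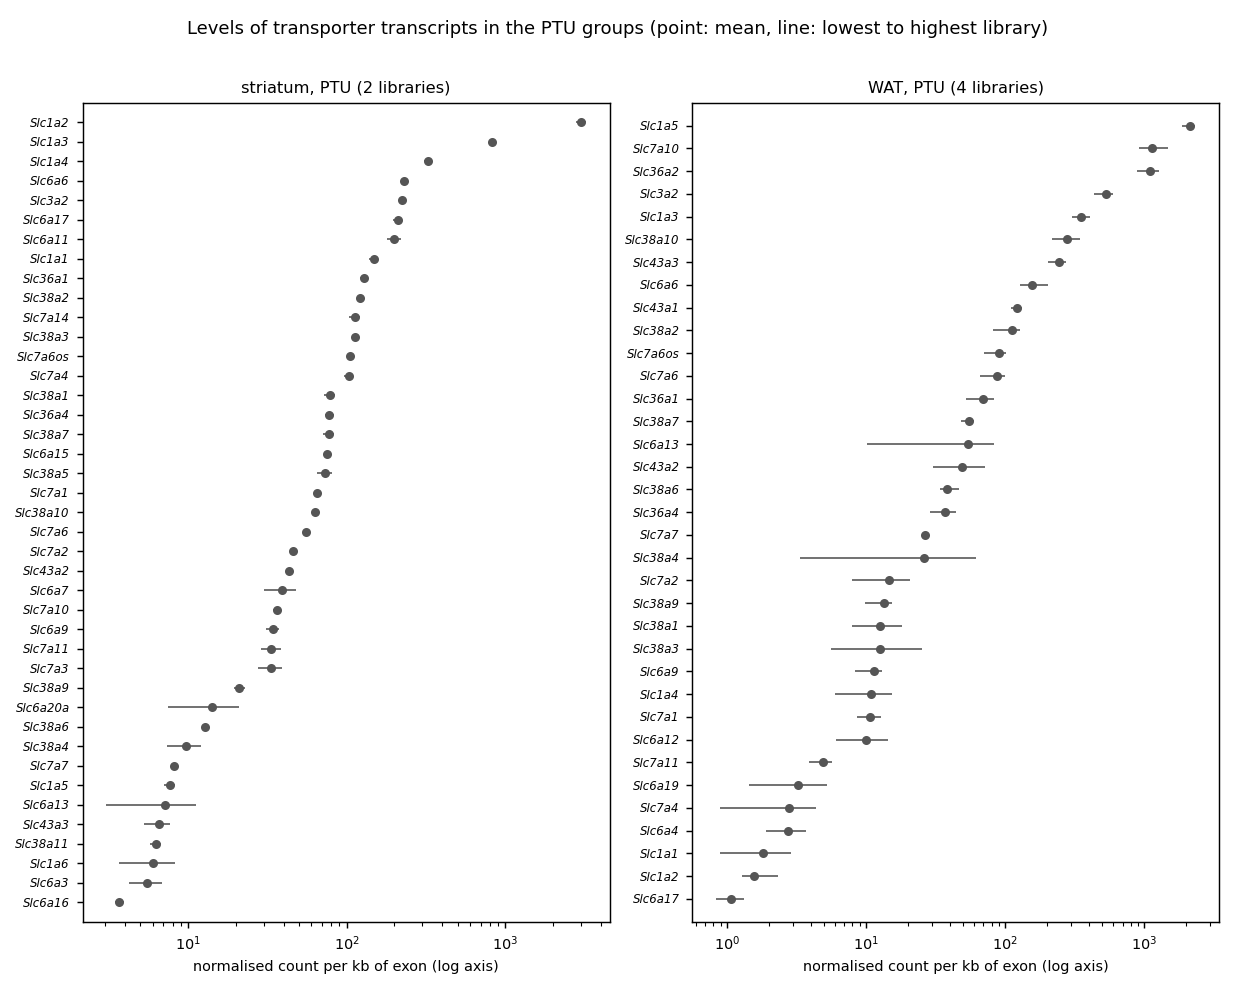
Level of the members reported in the PTU groups as normalised counts per kb of exon (horizontal log axis), with the mean as a point and the lowest to highest library as a line, for striatum (left, 2 libraries) and WAT (right, 4 libraries). Slc1a2 heads the striatum and Slc1a5 the WAT.

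Slc1a5 (chromosome 7, 16781340 to 16798274, plus strand, protein coding) rose most clearly of the members in WAT. It had 7803, 9741, 9773 and 8586 normalised counts in the PTU libraries, 31553, 33027, 36233 and 33620.4 at 6 h, and 24528, 26548, 22620.3 and 26501 at 24 h. Every TH library lay above every PTU library, and every 24 h library lay below every 6 h library. The log2 change was 1.90 ± 0.11 at 6 h (SE, 3.74-fold, adjusted p = 1.24e-06) and 1.48 ± 0.11 at 24 h (2.79-fold, adjusted p = 8.87e-06), and both held without any single library. From 6 h to 24 h it fell by 0.42 ± 0.11 (adjusted p = 0.0355), a call that was lost in 7 of the 12 fits without 1 library, those without any one of the 24 h libraries or without 6 h replicate 2, 3 or 4 (adjusted p 0.0501 to 0.0922), and with no filter on low counts (adjusted p = 0.11). In striatum it stayed between 26.2 and 41.9 normalised counts in all 10 libraries.

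Slc1a1 (EAAC1 or EAAT3, a glutamate and cysteine carrier of neurons and epithelia, on chromosome 19, 28835049 to 28913960) had the largest rise in fold among the members called. In WAT it had 24, 18, 10.8 and 7.38 normalised counts without TH, 82.8, 70, 101 and 159 at 6 h, and 103, 58.2, 84.9 and 75.3 at 24 h. The groups with TH lay wholly above the PTU group, and they overlapped each other. In log2 terms the change was 2.76 ± 0.36 at 6 h (adjusted p = 0.000777), with 2.40 ± 0.36 at 24 h (adjusted p = 0.000945). The gene remained low in WAT, with 12.5 ± 4.78 normalised counts per kb at 6 h (SD, n = 4), and 31.9% of its exonic bases are shared with 4430402I18Rik on the other strand, whose reads cannot be told apart where the counting ignored strand. In striatum Slc1a1 was 9th by level and had 1201 ± 101 normalised counts at 12 h and 1189 ± 102 at 24 h (SD, n = 4) beside 1224 ± 118 (n = 2) without TH.

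The glial glutamate carriers were not called by edgeR in the fits of all libraries with the count filter and no covariate or block. In striatum Slc1a2 had 36428 and 42158 normalised counts without TH, 38297, 38721, 39504 and 33284 at 12 h, and 49046, 63395, 53079.6 and 54550.2 at 24 h. All 4 libraries of the 24 h group, each of them with Xist counts, lay above the other 6. On the log2 scale its difference was 0.49 ± 0.13 at 24 h (adjusted p = 0.232) and 0.55 ± 0.11 from 12 h to 24 h (adjusted p = 0.122), where the adjusted p was 0.0128 with the cortical marker level as a covariate. DESeq2 called both (adjusted p = 0.0239 and 0.00025). The sum of 10 astrocyte markers, all detected, was 13810.2 to 14132 without TH, 13425 to 14715 at 12 h and 14313 to 17524 at 24 h, and its part in the Slc1a2 values was not tested. Slc1a4 (ASCT1, the neuronal and glial serine exchanger) had a log2 change of -0.29 ± 0.10 at 24 h in striatum (adjusted p = 0.356). In WAT Slc1a3 had 3005 ± 447, 2999 ± 694 and 3069.6 ± 1230.0 normalised counts (SD, n = 4) without TH, at 6 h and at 24 h.

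**Figure D3:**
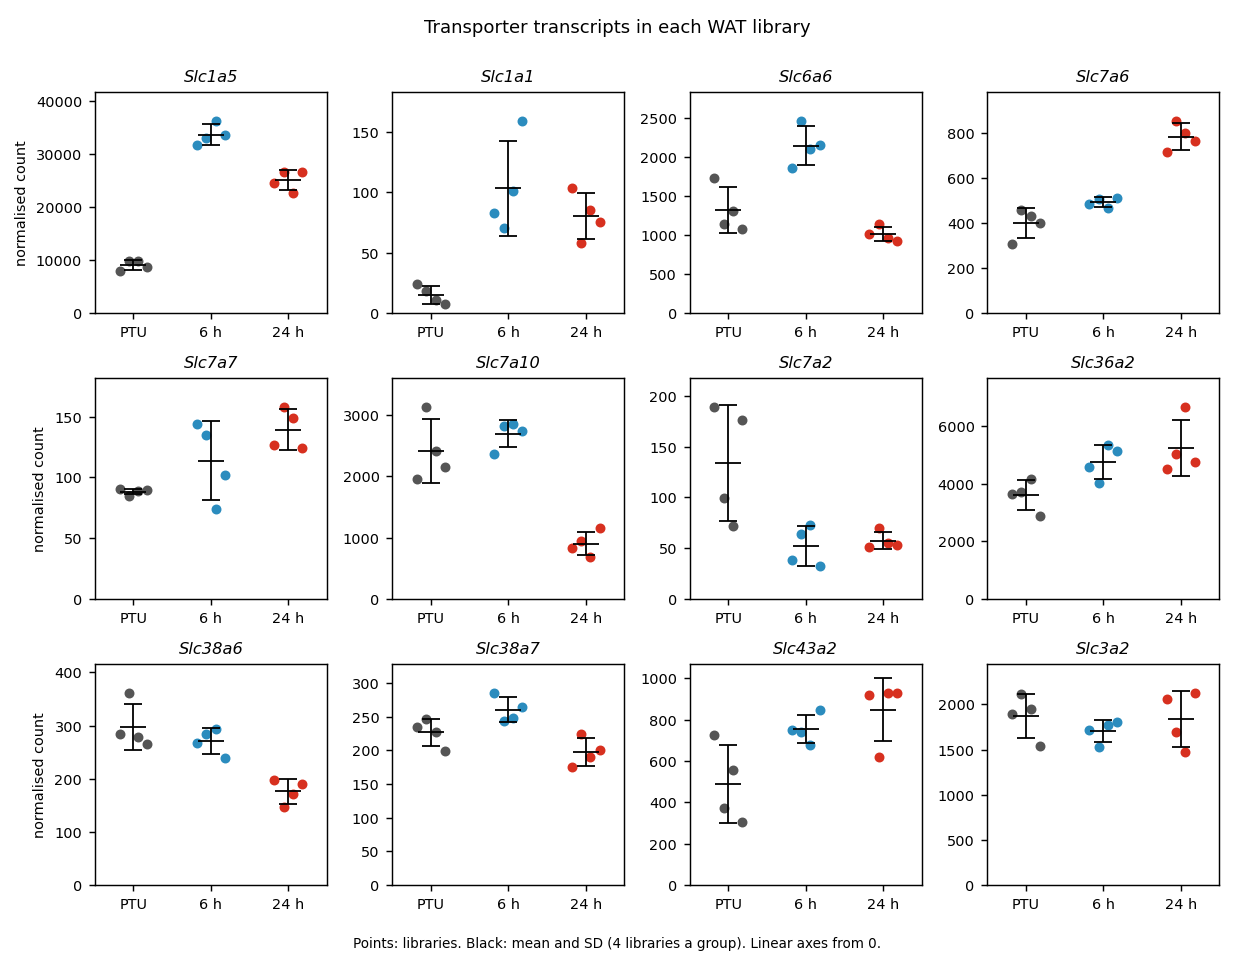
Normalised counts (vertical linear axes from 0) of 12 members in each WAT library (points) without TH, at 6 h and at 24 h, with the mean and SD in black. Slc1a5 and Slc1a1 are higher in every TH library, Slc7a10 and Slc38a6 are lower in every 24 h library, and Slc3a2 overlaps in all 3 groups.

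Slc7a10 (chromosome 7, 35186385 to 35201114, plus strand) was called lower in WAT and higher in striatum at 24 h. In WAT it had 1950.2, 3128, 2403 and 2154 normalised counts without TH and 2363, 2811, 2841 and 2729 at 6 h, and these groups overlapped. At 24 h it had 833, 942, 688 and 1148, below every earlier library. Its fitted log2 change was 0.16 ± 0.16 at 6 h (adjusted p = 0.582), -1.42 ± 0.17 at 24 h (0.375 of the PTU level, adjusted p = 0.000186) and -1.57 ± 0.17 from 6 h to 24 h (adjusted p = 0.000273), and both falls held without any single library. The sum of 8 adipocyte markers was 418908 to 527842 without TH, 356522 to 424780 at 6 h and 264049 to 368305 at 24 h, and the sum of 8 brown adipocyte markers, all detected, was 1821 to 3349, 5475 to 10278 and 8242 to 23181. The part of these shifts in the fall of Slc7a10 was not tested. Its exons share 17.9% of their bases with Lrp3 on the other strand.

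In striatum Slc7a10 had 72.3 and 81.1 normalised counts without TH, 148, 115, 144 and 116 at 12 h, and 166, 147, 164 and 172 at 24 h. Every TH library lay above both PTU libraries. The log2 change was 0.77 ± 0.15 at 12 h (adjusted p = 0.0476) and 1.08 ± 0.15 at 24 h (2.11-fold, adjusted p = 0.025). The call at 12 h held in only 1 of 10 fits without 1 library, the fit without 24 h replicate 2, and the adjusted p was 0.0585 to 0.329 in the other 9. The call at 24 h was lost without PTU replicate 3 (adjusted p = 0.507), PTU replicate 6 (0.146), 24 h replicate 1 (0.0589) or 24 h replicate 4 (0.0588), with the Y-linked level as a covariate (0.0831) and with the 2 groups alone (0.146). Among the 6 libraries with Xist counts alone, where PTU has 1 library, the log2 change was 0.98 at 24 h.

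Promoter sequences are shown for Slc7a10, which was called in both tissues at 24 h, for Slc7a6, and for Slc6a11, the one member whose upstream bases hold 2 copies of a TH receptor half-site. They are the 250 bases before the RefSeq start (build GRCm38.p6, plus strand, written 5′ to 3′), at chr7:35186135-35186384 for Slc7a10, chr8:106168604-106168853 for the first listed start of Slc7a6 and chr6:114130991-114131240 for Slc6a11. Capitals mark the half-site AGGTCA or the element TGATGNAA of the amino acid response factor ATF4, on either strand.
Slc7a10: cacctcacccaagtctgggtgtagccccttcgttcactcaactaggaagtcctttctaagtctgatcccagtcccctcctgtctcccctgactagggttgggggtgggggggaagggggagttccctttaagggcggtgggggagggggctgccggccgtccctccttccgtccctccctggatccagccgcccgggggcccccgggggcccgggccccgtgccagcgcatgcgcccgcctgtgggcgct
Slc7a6: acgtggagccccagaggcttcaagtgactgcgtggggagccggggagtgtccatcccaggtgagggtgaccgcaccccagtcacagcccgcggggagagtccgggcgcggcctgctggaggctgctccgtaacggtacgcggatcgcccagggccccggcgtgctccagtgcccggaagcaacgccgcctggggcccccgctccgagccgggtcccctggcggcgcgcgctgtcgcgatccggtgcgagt
Slc6a11: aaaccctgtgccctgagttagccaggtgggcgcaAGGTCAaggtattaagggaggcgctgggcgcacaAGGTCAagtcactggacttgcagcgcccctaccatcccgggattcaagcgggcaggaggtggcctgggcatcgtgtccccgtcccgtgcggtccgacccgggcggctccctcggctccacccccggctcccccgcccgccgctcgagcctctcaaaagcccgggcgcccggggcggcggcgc
Of 47 members 35 had a promoter entry, with 53 windows of 250 bases before to 50 after a start. AGGTCA was in 6 of these windows (11.3%) and in 16.3% of all 32851 windows, and TGATGNAA was in 4 (7.55%) and in 3.97% of all. The full element of 2 AGGTCA copies spaced by 4 bases was in 0 of the 53 and in 0.0152% of all. A match is a description of letters and shows no binding.

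Among the other light chains Slc7a6 and Slc7a7 rose in WAT. Both are y+LAT exchangers, which let cationic amino acids out in return for neutral ones. Slc7a6 (chromosome 8, 106168857 to 106198706) had 305, 457, 429.5 and 399.6 normalised counts without TH, 484, 507, 464 and 510.0 at 6 h, and 715, 852, 799 and 760.3 at 24 h. The 3 groups did not overlap and their order followed time. In log2 terms the change was 0.31 ± 0.12 at 6 h (adjusted p = 0.13), 0.98 ± 0.12 at 24 h (1.97-fold, adjusted p = 0.000186) and 0.67 ± 0.12 between them (adjusted p = 0.00583, and 0.132 with the stratified epithelium level as a covariate). The neighbour Slc7a6os, 379 ± 62.1 without TH (SD, n = 4), had log2 changes of 0.06 ± 0.13 and -0.10 ± 0.13 (adjusted p = 0.779 and 0.613).

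Slc7a7, the carrier that is lost in lysinuric protein intolerance, had 90.3, 85, 88.4 and 89.8 normalised counts in WAT without TH, 144, 135, 73.9 and 102 at 6 h, and 126, 158, 149 and 124 at 24 h. The 24 h libraries lay above all PTU libraries. The log2 change at 24 h was 0.66 ± 0.19 (adjusted p = 0.0306), and it was not called without PTU replicate 2, 3 or 4 or 24 h replicate 2 or 3 (adjusted p 0.0523 to 0.0827), nor with the epithelium level as a covariate (adjusted p = 0.125). The sum of 10 stratified epithelium markers was 403 to 1066 without TH, 351 to 4021 at 6 h and 274 to 346 at 24 h, with 4 of 10 detected at 24 h. That of 10 leukocyte markers, all detected, was 10578 to 16540.5 without TH, 9620 to 18859 at 6 h and 14990 to 18524 at 24 h. The part of leukocytes in the Slc7a7 values was not tested. The heavy chain Slc3a2 did not pass in WAT, with log2 changes of -0.14 ± 0.13 at 6 h and -0.03 ± 0.13 at 24 h (adjusted p = 0.528 and 0.894). In striatum its log2 change was 0.32 ± 0.12 at 24 h (adjusted p = 0.421). The cystine exchanger Slc7a11 was at 468 ± 96.1 (SD, n = 2), 458 ± 108 and 446 ± 69.3 (n = 4) in the striatum groups by time, and at 68.8 ± 12, 66.2 ± 25.3 and 67.2 ± 10.6 (n = 4) in those of WAT.

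Of the cationic carriers Slc7a2 (CAT2, which takes up arginine, on chromosome 8, 40862396 to 40922308) fell in WAT at both times. It had 189, 99.4, 72.2 and 176 normalised counts without TH, 38, 64.4, 72.8 and 32.8 at 6 h, and 51.1, 69.8, 55.2 and 53.1 at 24 h. PTU replicates 1 and 4 were high, and 1 library at 6 h lay just above PTU replicate 3. On the log2 scale its difference was -1.36 ± 0.33 at 6 h (adjusted p = 0.0269), with -1.22 ± 0.33 at 24 h (adjusted p = 0.0227). PTU replicates 1 and 4 were also the PTU libraries with most skeletal muscle RNA (217686 and 513920 summed normalised counts over 10 markers, against 2185 and 3748), and with that level as a covariate the adjusted p was 0.0477 at 6 h and 0.00524 at 24 h. The call at 6 h was lost without PTU replicate 4 or 6 h replicate 1 or 4 (adjusted p 0.064 to 0.0782) and that at 24 h without PTU replicate 4 or 24 h replicate 1, 3 or 4 (0.056 to 0.0606), and the epithelium covariate gave 0.0635 and 0.0554. Slc7a1 (CAT1) had log2 changes of 0.38 ± 0.18 and 0.49 ± 0.18 in WAT (adjusted p = 0.207 and 0.0793).

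In striatum Slc7a2 had 420.2 and 420.4 normalised counts without TH, 276, 282, 355 and 345 at 12 h, and 435, 376, 389 and 451 at 24 h. The 12 h libraries were the lowest of the 10. The log2 change of -0.42 ± 0.13 at 12 h did not pass (adjusted p = 0.11), nor did that of 0.39 ± 0.10 from 12 h to 24 h (adjusted p = 0.161). Slc7a14, a lysosomal member of the family, had a log2 change of -0.42 ± 0.18 at 24 h (adjusted p = 0.482).

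Of the carriers of GABA and taurine edgeR called 1 in the fits of all libraries with the count filter and no covariate or block. It was the taurine carrier in WAT, in 2 comparisons. Slc6a6 (TauT, the taurine carrier, on chromosome 6, 91684053 to 91759066) had 1735, 1139, 1311 and 1082 normalised counts in WAT without TH, 1857, 2466, 2105 and 2151 at 6 h, and 1007, 1139, 964 and 926 at 24 h. It rose at 6 h above all PTU libraries and was back among or under them at 24 h. Its fitted log2 change was 0.70 ± 0.14 at 6 h (adjusted p = 0.0119), -0.38 ± 0.14 at 24 h (adjusted p = 0.0836) and -1.09 ± 0.14 between the times (adjusted p = 0.00122), and the first and last held without any single library.

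Slc6a11 (GAT3, the GABA carrier of astrocytes) had the largest log2 difference of the 42 members in striatum at 12 h, and it missed the threshold. It had 1109.8 and 903 normalised counts without TH, 2431, 1871, 1643 and 3067 at 12 h, and 990.2, 1444, 1086 and 1328 at 24 h. All 12 h libraries lay above the other 6. The log2 change was 1.16 ± 0.25 at 12 h (adjusted p = 0.0568) and -0.89 ± 0.19 from 12 h to 24 h (adjusted p = 0.136). DESeq2 called both (adjusted p = 0.00044 and 0.0034). The 12 h library with most Slc6a11, replicate 4, also had the most meningeal and monoamine neuron RNA. The summed normalised counts were 1053 and 449.6, against 293 to 843 and 70.6 to 217 in the others. In 12 h replicate 1, with 2431 counts of Slc6a11, these sums were 421 and 126, the lowest at 12 h. All 8 meningeal and 4 of 6 monoamine neuron markers were detected at 12 h, and their part was not tested. In WAT the gene had a mean of 1.28 normalised counts.

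**Figure D4:**
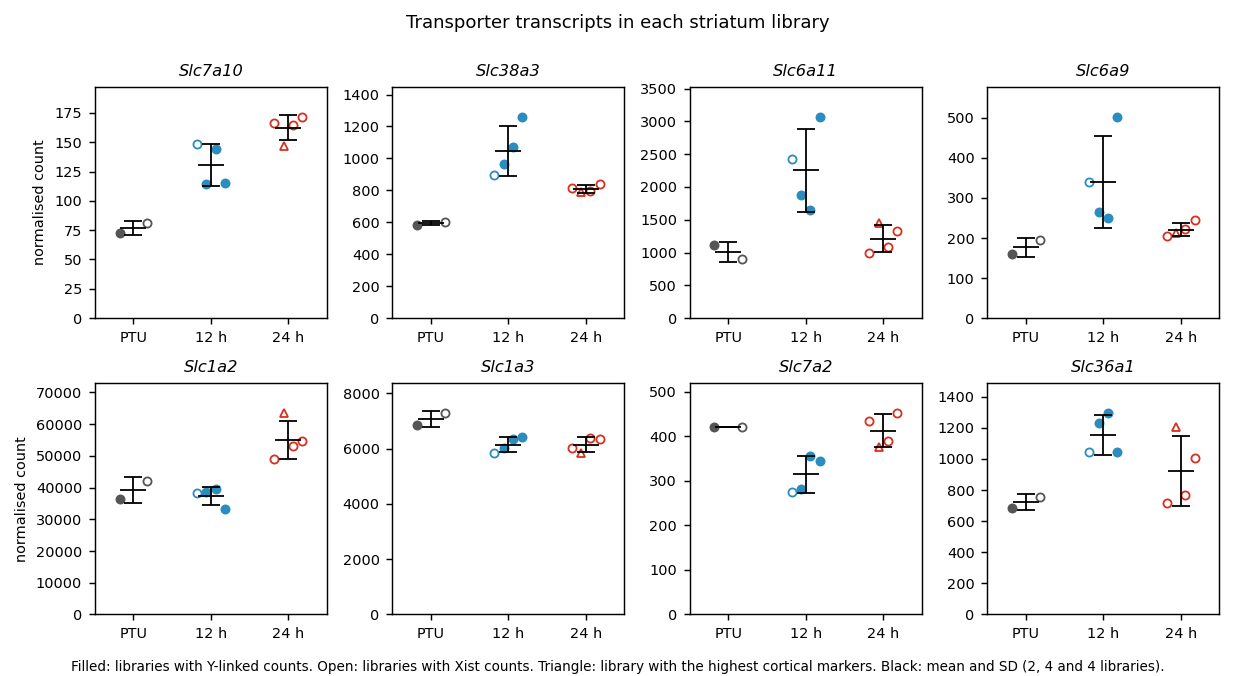
Normalised counts (vertical linear axes from 0) of 8 members in each striatum library, with the mean and SD in black. Filled points are libraries with Y-linked counts, open points libraries with Xist counts, and the triangle is the library with the highest cortical markers. Slc7a10, Slc38a3 and Slc6a9 are higher in every TH library than in both PTU libraries. Slc6a11 and Slc36a1 are so in every 12 h library, and Slc1a2 is so in every 24 h library.

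Of the carriers of glycine, proline and monoamines edgeR called none in either tissue. This holds for the fits of all libraries with the count filter and no covariate or block. In striatum Slc6a9 (GlyT1, the glial glycine carrier) had 160.3 and 194 normalised counts without TH, 339.8, 264, 251 and 502 at 12 h, and 205, 212, 221 and 244 at 24 h. The 12 h libraries were the highest of the 10, and the log2 change there was 0.94 ± 0.25 (adjusted p = 0.0905). DESeq2 called it (adjusted p = 0.0173), and 30.2% of its exonic bases lie opposite B4galt2, Ccdc24 and Gm17114. The dopamine carrier Slc6a3, a marker of midbrain fibres and cells, had a log2 change of -1.27 ± 0.33 from 12 h to 24 h at a mean of 30.1 and 12.2 normalised counts (adjusted p = 0.158). In WAT the serotonin carrier Slc6a4 had a log2 difference of -0.73 ± 0.41 from 6 h to 24 h at means of 12.8 and 7.61 (adjusted p = 0.302).

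Of the proton-coupled carriers Slc36a2 (PAT2, a surface protein of fat cells, on chromosome 11, 55158470 to 55185077) rose in WAT at 24 h. It had 3633, 3711, 4147 and 2881 normalised counts without TH, 4575, 4017, 5329 and 5117 at 6 h, and 4507, 5035, 6659.6 and 4732 at 24 h. The 24 h libraries lay above all PTU libraries, and at 6 h 1 library did not. The sum of 8 brown adipocyte markers was 1821 to 3349 without TH, 5475 to 10278 at 6 h and 8242 to 23181 at 24 h. The part of this shift in the Slc36a2 values was not tested. In log2 terms the change was 0.41 ± 0.15 at 6 h (adjusted p = 0.12) and 0.54 ± 0.15 at 24 h (1.46-fold, adjusted p = 0.0265). The second was not called without PTU replicate 2 or 4 or 24 h replicate 3 (adjusted p 0.0502 to 0.0662), nor with the epithelium covariate (0.0544) or the PTU and 24 h groups alone (0.0578). In WAT the log2 change of Slc36a4 was -0.40 ± 0.13 at 24 h and -0.24 ± 0.13 from 6 h to 24 h (adjusted p = 0.0546 and 0.287). In striatum Slc36a1 (PAT1, of lysosomes) was 722 ± 50.4 (SD, n = 2) without TH and 1153 ± 129 (n = 4) at 12 h, a log2 change of 0.67 ± 0.20 (adjusted p = 0.101).

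Of 10 SLC38 genes in striatum and 8 in WAT, 1 rose in striatum and 2 fell in WAT in some comparison. Slc38a3 (SNAT3, through which astrocytes release glutamine, on chromosome 9, 107650634 to 107669530) had 584 and 602 normalised counts in striatum without TH, 898, 963, 1069 and 1259.7 at 12 h, and 812, 787, 794 and 839.7 at 24 h. Both TH groups lay above both PTU libraries and the 12 h group lay above the 24 h group. On the log2 scale its difference was 0.82 ± 0.13 at 12 h (1.77-fold, adjusted p = 0.0222), 0.45 ± 0.13 at 24 h (adjusted p = 0.253) and -0.37 ± 0.10 between the times (adjusted p = 0.163). The call was lost without PTU replicate 3 (adjusted p = 0.279), PTU replicate 6 (0.184), 12 h replicate 2 (0.0669) or 12 h replicate 3 (0.0627). Among the 4 libraries with Y-linked counts alone, 1 of them PTU, the log2 change was 0.91. Among those with Xist counts, where 1 PTU library stands against 1 library at 12 h, it was 0.57. Slc38a1 (SNAT1, a neuronal glutamine carrier) had a log2 change of 0.44 ± 0.14 at 12 h (adjusted p = 0.125).

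In WAT Slc38a6 (chromosome 12, 73286779 to 73354049) had 283, 362, 278 and 266 normalised counts without TH, 267, 285, 293 and 239 at 6 h, and 198, 146, 171 and 190.3 at 24 h. Every 24 h library lay below the other 8. Its fitted log2 change was -0.75 ± 0.13 at 24 h (0.594 of the PTU level, adjusted p = 0.00238) and -0.62 ± 0.13 from 6 h to 24 h (adjusted p = 0.0161, and 0.0798 and 0.0794 with the epithelium and muscle covariates). Slc38a7 (SNAT7, a lysosomal glutamine carrier, on chromosome 8, 95835920 to 95853539) had 285, 244, 248 and 264 at 6 h and 176, 224, 190.0 and 200.3 at 24 h, a log2 change of -0.40 ± 0.11 (adjusted p = 0.0428) that was called in 4 of the 12 fits without 1 library. It was lost without PTU replicate 3, any 6 h replicate, or 24 h replicate 1, 3 or 4 (adjusted p 0.0514 to 0.11). Its PTU libraries, 199 to 247, overlapped the 24 h group.

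Slc38a2 (SNAT2, a carrier induced by amino acid shortage) had a log2 change of 0.42 ± 0.20 in WAT at 24 h (adjusted p = 0.161). Slc38a4 and Slc38a3 differed in WAT more between libraries than between groups. Slc38a4 had 134, 14.4, 35.2 and 263 normalised counts without TH, 24.6, 30.6, 55.7 and 14.8 at 6 h, and 191, 132, 36.1 and 68.6 at 24 h. The libraries over 100 were PTU replicates 1 and 4 and 24 h replicates 1 and 2, the 4 with most skeletal muscle RNA (175987 to 513920 summed normalised counts against 957 to 96419 in the other 8). Its log2 change was -1.83 ± 0.77 at 6 h (adjusted p = 0.165) and 1.78 ± 0.77 from 6 h to 24 h (adjusted p = 0.178), and the latter was 0.818 with the muscle covariate. Slc38a3 had a log2 change of 1.03 ± 0.55 from 6 h to 24 h (adjusted p = 0.274).

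Of the SLC43 carriers Slc43a2 (LAT4, which lets branched-chain and other large neutral amino acids pass, on chromosome 11, 75531694 to 75577575) rose in WAT at 24 h. It had 725, 374, 555 and 304 normalised counts without TH, 749, 738, 679 and 844 at 6 h, and 917, 618, 929 and 927 at 24 h. The groups overlapped, since 24 h replicate 2 lay below PTU replicate 1. The log2 change was 0.62 ± 0.23 at 6 h (adjusted p = 0.122) and 0.79 ± 0.23 at 24 h (1.73-fold, adjusted p = 0.0337). The call was lost without PTU replicate 2 or 4 or 24 h replicate 1, 3 or 4 (adjusted p 0.0609 to 0.102), with the epithelium covariate (0.109) and with the 2 groups alone (0.0812). For Slc43a1 (LAT3) it was -0.33 ± 0.14 at 24 h and -0.43 ± 0.14 from 6 h to 24 h (adjusted p = 0.138 and 0.0896).

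Whether the response at 24 h differed between the tissues was tested for the 30 members present in both, as an interaction in 1 fit of all 22 libraries. It differed for 4, where 5.23% of 12766 genes did (1.71% higher and 3.52% lower in WAT). The change in WAT exceeded that in striatum by 2.43 ± 0.38 in log2 for Slc1a1 (adjusted p = 0.00063), by 1.55 ± 0.21 for Slc1a5 (adjusted p = 0.000145) and by 0.93 ± 0.18 for Slc7a6 (adjusted p = 0.00412). In striatum these 3 had log2 changes of -0.04 ± 0.11, -0.07 ± 0.22 and 0.05 ± 0.13. For Slc7a10 the difference was -2.50 ± 0.26 (adjusted p = 2.18e-05). All 4 held in each of the 22 fits without 1 library. They also held with other scaling, no filter, DESeq2 and the 4 groups alone. No covariate or block was applied to this comparison. The next members by p were Slc7a7 (0.95 ± 0.30, adjusted p = 0.0661), Slc7a2 (-1.19 ± 0.38, adjusted p = 0.0756), Slc38a7 (-0.61 ± 0.20, adjusted p = 0.083), Slc38a10 (-0.46 ± 0.17, adjusted p = 0.127) and Slc43a2 (0.74 ± 0.30, adjusted p = 0.16).

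**Figure D5:**
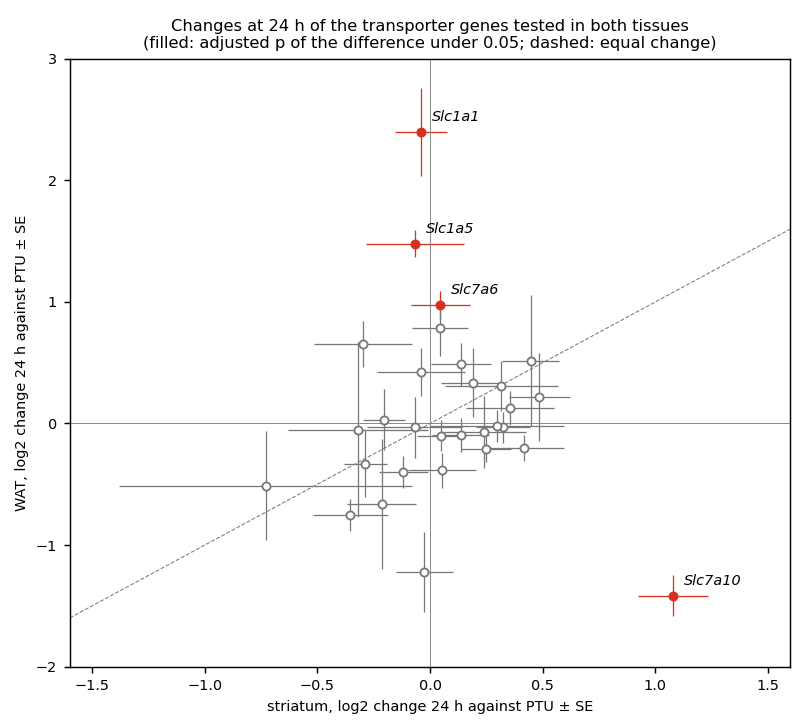
Log2 change at 24 h against PTU in striatum (horizontal axis) and in WAT (vertical axis), with standard errors, for the 30 members tested in both tissues, filled where the difference had an adjusted p under 0.05. Slc1a1, Slc1a5 and Slc7a6 lie above the dashed line of equal change and Slc7a10 lies far below it.

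The 5 members that passed in WAT only were Slc36a2, Slc43a1, Slc6a12, Slc6a19 and Slc6a4, with means of 3.39 to 4.79 normalised counts in striatum. The 12 that passed in striatum only had means of 0.476 to 8.09 in WAT. Of the 17 symbols that passed in neither, Slc38a8 had a mean of 7.56 in striatum and Slc7a13 of 5.12 in WAT. The others were Slc1a7, Slc3a1, Slc36a3, Slc6a2, Slc6a5, Slc6a14, Slc6a18, Slc6a20b, Slc6a21, Slc7a9, Slc7a12, Slc7a15, Slc36a1os, Slc36a3os and Slc6a19os, each with a mean of at most 4.49 where the table holds it.

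Enzymes and sensors of amino acid metabolism, listed apart from the members, gave the following counts. Of 68 tested in WAT, 4 rose and 2 fell at 6 h, where 7.23% of all genes were called. At 24 h 8 rose and 16 fell, where 7.45% of all genes rose and 9.62% fell, and between the times 2 rose and 9 fell, where 3.07% rose and 4.35% fell. At 6 h Gpt2 (alanine transaminase, log2 change 1.05 ± 0.16), Prodh (proline oxidation, 2.24 ± 0.38), the lysosomal cystine carrier Ctns (0.61 ± 0.12) and Glul (glutamine synthetase, 1.07 ± 0.26) rose, and Cth (cysteine synthesis, -0.73 ± 0.14) and Asns (asparagine synthetase, -0.65 ± 0.14) fell. At 24 h Prodh (2.39 ± 0.38), Mthfd2 (0.81 ± 0.16) and Glul (1.18 ± 0.26) were the clearest rises. Cth (-1.27 ± 0.14), Gpt (-1.10 ± 0.15), Csad (-0.72 ± 0.12), Cbs (-1.49 ± 0.33), Oat (-0.51 ± 0.12) and Bckdhb (-0.46 ± 0.11) fell at 24 h, as did Asns (-0.86 ± 0.14), Mccc2 (-0.61 ± 0.10) and the aromatic amino acid carrier Slc16a10 (-0.93 ± 0.11). The serine synthesis enzymes Phgdh (-0.92 ± 0.15) and Psat1 (-0.67 ± 0.12) and the glycine-cleaving Gldc (-0.71 ± 0.17) fell too.

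From 6 h to 24 h in WAT Odc1 (0.42 ± 0.10) and Got1 (1.56 ± 0.42) rose, and the 9 that fell were Slc16a10 (-0.72 ± 0.11), Mccc2 (-0.54 ± 0.10), Gldc (-0.85 ± 0.17), Gpt (-0.69 ± 0.15), Phgdh (-0.67 ± 0.15), Csad (-0.54 ± 0.12), Cth (-0.53 ± 0.14), Psat1 (-0.45 ± 0.12) and Ctns (-0.44 ± 0.12). Of 77 tested in striatum, edgeR called 1, Gls2 (glutaminase 2), where 0.96% (12 h) and 0.348% (24 h) of all genes passed. It rose by 2.32 ± 0.25 at 12 h and 2.51 ± 0.25 at 24 h in log2 (adjusted p = 0.0111 and 0.00562). Both calls were lost without PTU replicate 3 (adjusted p = 0.21 and 0.214) or PTU replicate 6 (0.13 and 0.116), and that at 24 h with the 2 groups alone (0.0824). Between the times edgeR called 0, with 14 of the 77 at an unadjusted p under 0.05, where 2309 of 15827 genes were. The response at 24 h differed between the tissues for 7 of 66, where 5.23% of all genes did, higher in WAT for Mthfd2 (0.89 ± 0.24) and lower for Gpt (-1.81 ± 0.34), Slc16a10 (-1.26 ± 0.24), Asns (-0.91 ± 0.20), Phgdh (-1.33 ± 0.29), Psat1 (-0.73 ± 0.18) and Cth (-1.30 ± 0.38).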

How the data were processed

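RNA-seq was made from striatum (10 libraries) and WAT (12 libraries). The authors aligned reads to the mouse genome GRCm38 with Bowtie, dropped alignments of low mapping quality and counted reads per gene with htseq-count, and deposited raw counts per gene. The annotation release and the strand setting were not given in the sources used here. Each tissue has its own table, and the tables were normalised separately. Rows whose symbols had been turned into dates (14 and 15) held at most 0.201% of counts and could match no member.

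Counts were tested with edgeR 4.0.16 (quasi-likelihood F test, TMM scaling, R 4.3.3, limma 3.58.1) over all genes with a mean normalised count above 10, with all groups of a tissue in 1 fit. Adjusted p values are Benjamini-Hochberg values over all genes tested, called under 0.05, and SE is the log2 change divided by the square root of F. Normalised counts are counts scaled to the mean effective library size of the tissue. Tissues were compared by an interaction in 1 fit. Depth was 8.04 to 10.1 M and 17.3 to 26.9 M counts. DESeq2 1.42.0, other scaling, no filter, covariates, blocks and fits without 1 library were alternatives. Scripts were tested on simulated data. Members named are all those called and the 5 next by p in each comparison, and up to 15 called genes of the amino acid list. The members and lists were chosen with earlier results of these data known. The labels do not say whether replicates are separate animals, so p values measure the spread between these libraries. Gene positions are from GENCODE M21. Values of 1 member are not reported here, and it remains in the counts.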

Additional observations from a re-analysis of the deposited data

Results flagged for a closer look

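Across 125 pairings of a named member with a group of 4 libraries, 3 had 1 library far from the other 3. Chance gives about 1 in 20 for independent sets. These pairings share libraries and the members were named by p, so that rate is a rough guide only. Slc1a2 had 30.7 normalised counts in WAT of PTU replicate 4, and the other PTU libraries had 16.8 to 18. Slc38a2 had 1530 in striatum of 12 h replicate 4, against 976 to 1064 in the other 12 h libraries. Slc43a2 had 618 in WAT of 24 h replicate 2, against 917 to 929, and this library set the overlap of its 24 h group with PTU.

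The response at 24 h differed between WAT and striatum in the interaction test for Slc7a10 (-2.50 in log2), Slc1a5 (1.55), Slc1a1 (2.43) and Slc7a6 (0.93). The tissues also differed in extraction kit, depth and whether the study's list of datasets gives PTU, and the part of these differences was not tested.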

How the results depend on the processing

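Of the values for named members under an alternative, 1087 kept their direction and side of the threshold, 81 lost the call, 30 gained it and 0 reversed. In striatum at 12 h the 2 member calls became 4 with no filter, 5 by DESeq2, 7 with the 2 groups alone and 1 with the Y-linked covariate, where 1.01%, 5.02%, 9.05% and 0.505% of all genes were called, and 0 to 7 without 1 library. At 24 h the 1 call became 2 by DESeq2 (1.28% of all genes), 0 with the 2 groups alone (0%) or the Y-linked covariate (0.019%), and 0 to 1 without 1 library. Between the times the 0 calls became 1 with no filter, 2 by DESeq2 and 3 with the cortical covariate, where 0.134%, 1.52% and 2.78% of all genes were called. In WAT the 9 calls at 24 h became 5 with the epithelium covariate (10.8%) and 5 to 11 without 1 library, and the 6 between the times became 2 with the epithelium (0.82%) and 3 with the muscle covariate (2.72%). The causes were not tested. The split of striatum libraries by Xist or Y-linked counts was chosen after seeing the data. In the 6 libraries with Xist counts, 1 PTU library stood against 1 at 12 h and 4 at 24 h. Of all genes 0 were called there (smallest adjusted p 0.982 and 0.973), so the 0 calls of members and of the amino acid list say nothing about either.

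For the amino acid list in striatum at 12 h the 1 call became 2 with no filter, 5 by DESeq2, 10 with the 2 groups alone, 3 with the cortical covariate, 4 in the libraries with Y-linked counts, and 0 to 10 without 1 library. At 24 h it became 3 with the cortical covariate, 0 with the 2 groups alone, and 0 to 2 without 1 library, and between the times the 0 became 2 with the cortical covariate and 0 to 1 without 1 library. In striatum at 12 h 1.01% of all genes were called with no filter, 5.02% by DESeq2 and 9.05% with the 2 groups alone. The share was 2.19% with the cortical covariate and 7.93% without 24 h replicate 2. At 24 h it was 1.47% with the cortical covariate, 0% with the 2 groups alone and 0.725% without 24 h replicate 2. Between the times it was 2.78% with the cortical covariate. In WAT the 11 calls between the times became 17 by DESeq2 (12.1% of all genes) and 19 with the 2 groups alone (13.6%). They became 1 and 2 with the epithelium and muscle covariates (0.82% and 2.72%), and 6 to 17 without 1 library (3.7% to 11.4%). Without 1 library the list had 5 to 10 calls at 6 h, where 684 to 1898 of all genes were called. At 24 h it had 17 to 27, where 1957 to 4264 were. For the tissue differences given next, 1.98% of all genes were called with the 4 groups alone and 9.06% without WAT PTU replicate 1. The 7 differences between tissues became 3 with the 4 groups alone and 1 to 13 without 1 library.

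Deviations of libraries with the same number correlated at -0.395 to 0.267 in striatum and -0.472 to 0.394 in WAT, positive in some pairs and negative in others, so a pairing was not shown and the fits without the block were kept. With the replicate block, member calls in WAT were 3 at 6 h, 8 at 24 h and 4 between the times. Of 17928 genes, 886, 2312 and 778 were called in these comparisons. Calls of the amino acid list between the times in WAT were 6. Striatum kept 0 between the times, where 7 of 15794 genes were called. With 2 PTU libraries and mixed Xist status, the striatum comparisons with PTU rest on few libraries, and low counts such as those of Slc1a5 there limit what could be seen.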
